A study of Mus musculus with 180 samples.

Results

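Adult multipotent progenitors (WT-MPP) were compared with adult haematopoietic stem cells (BM HSC), 41 and 36 single cells that make up 77 of the 180 cells used from the series. Members were taken by name alone, each cell having its own titled library of bone marrow from 8-week-old C57BL/6 mice, and no expression value entered the choice. Both populations came from mice carrying a Rosa26 allele in which a stop cassette blocks an added Hoxb5 and EGFP (Rosa LSL-Hoxb5-EGFP/+). Neither received Cre, polyinosinic-polycytidylic acid or a transplantation, so the added Hoxb5 was silent by design in both. The study's gate for its conventional MPP took lineage-negative, CD48-negative cells with Sca1 and c-kit, without CD150 and with CD135. The gate of the BM HSC is not given in the sources used here. The animals behind the cells are not named. Each population is therefore treated as a single sample, differences carry no test, and the spread over cells is a description.

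Haematopoietic stem cells sit at the top of the blood hierarchy, self-renew for life and divide rarely in the adult marrow. Multipotent progenitors arise from them, still form every blood lineage, but sustain it only for a limited time. On the surface of mouse cells the passage is read as a gain of FLT3 (CD135) and CD34 and a loss of CD150, the product of Slamf1.

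The deposited values are TPM, a unit in which the authors scaled every cell to the same sum, so depth is unknown. A gene is called detected in a cell where its TPM reached 1, and the number of detected genes per cell was 2615 at the lowest, 3844 at the median and 4751 at the highest in WT-MPP, against 2479, 4441.5 and 5861 in BM HSC. Within BM HSC this number moved with the number in the cell's title. The 16 cells numbered 1 to 20 had a median of 5169.5 genes and the 20 cells numbered 21 to 40 a median of 4205, whereas the WT-MPP medians were 4141.5 for numbers 1 to 20 and 3825 for higher numbers. What the numbers stand for is not stated, and results that change between these BM HSC cells are given for each set. Xist was detected in 27 WT-MPP and 23 BM HSC cells, and Ddx3y, Eif2s3y, Kdm5d and Uty, all on the Y chromosome, were listed at 0 in every cell of both. These 5 genes were looked at after other values had been seen.

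Genes detected in 10% or more of either population's cells were kept, 9657 genes, and each was given as the difference between the populations in mean log2(TPM + 1) over cells, WT-MPP minus BM HSC. BM HSC had the higher mean for 6539 of them, or 67.7%, and the median difference was -0.29 with quartiles of -0.75 and 0.14. A difference of 2 or more was found for 239 genes, of which 34 were higher in WT-MPP (0.352% of genes) and 205 in BM HSC (2.12%). At 1 or more the counts were 290 (3.0%) and 1573 (16.3%). The share of the 239 genes that lay on the BM HSC side was 85.8%. It was 69.0% among cells with 3500 to 5000 detected genes, 68.1% on the log2 of the mean TPM, 69.6% with BM HSC numbered 21 to 40 and 95.3% with those numbered 1 to 20. The lean towards BM HSC therefore varied with the cells and the average used, and gene groups are read below against the median and shares of all genes.

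**Figure D1:**
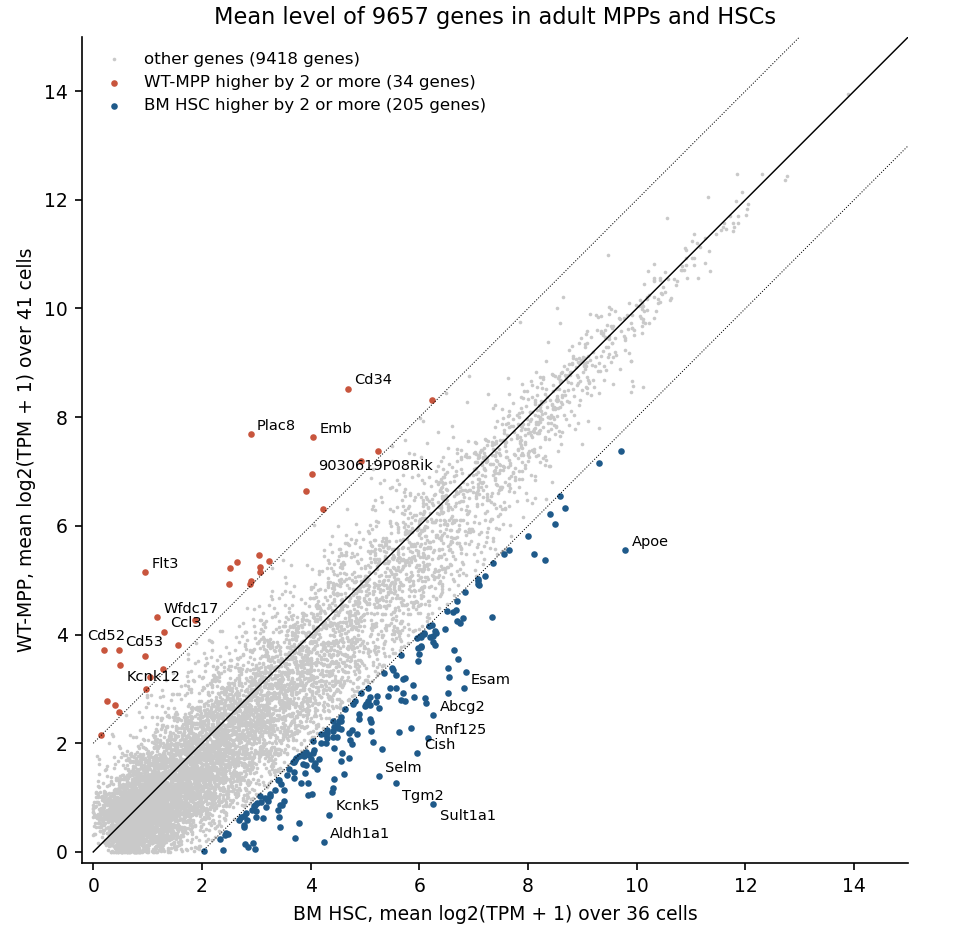
Mean level of each of 9657 genes, as log2(TPM + 1), over 36 BM HSC cells (horizontal axis) and 41 WT-MPP cells (vertical axis), 1 point per gene. The solid line marks equal levels and the dotted lines a difference of 2 either way. Red points (34 genes) lie above the upper dotted line, blue points (205 genes) below the lower one, and the 10 genes of largest difference on each side carry their names.

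Several of the genes that stood highest in WT-MPP encode surface proteins of early progenitors or proteins of myeloid and lymphoid cells. Plac8, a small cysteine-rich protein of leukocytes (chr5:100551589-100572253 on GRCm38.p6), had the largest difference (4.79). Its TPM was 2.98 at the lowest, 419 at the median and 2989 at the highest over the 41 WT-MPP cells, and 0, 2.44 and 1342 over the 36 BM HSC cells. It was detected in every WT-MPP cell and in 22 BM HSC cells, 61.1% (95% exact Clopper-Pearson interval 43.5 to 76.9%, which covers the counting of cells only). The upper BM HSC cells lay among the WT-MPP cells, so the ranges overlapped. The difference was 6.55 with BM HSC numbered 21 to 40 and 2.59 with those numbered 1 to 20.

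Flt3 (chr5:147330741-147400489) encodes the receptor tyrosine kinase that the MPP gate selected as protein, so its difference was built into the sort on that side. Its TPM ran from 0 over a median of 89.9 to 1030 in WT-MPP and from 0 over 0.287 to 97.4 in BM HSC. The transcript was detected in 31 WT-MPP cells, 75.6% (59.7 to 87.6%), and in 9 BM HSC cells, 25% (12.1 to 42.2%), a difference in level of 4.20. Slamf1 (chr1:171767131-171801184), whose protein CD150 the gate excluded, was the reverse. It was detected in 3 WT-MPP cells, 7.32% (1.54 to 19.9%), and 23 BM HSC cells, 63.9% (46.2 to 79.2%), and never passed a TPM of 2.05 in WT-MPP, whereas it reached 728 in BM HSC. Taken cell by cell, 2 WT-MPP cells had both transcripts, 29 had Flt3 alone, 1 had Slamf1 alone and 9 had neither. In BM HSC the counts were 5, 4, 18 and 9. The remaining gate transcripts differed less, with Ptprc (CD45) at -1.37, Kit at -0.95, Ly6a (Sca1, a member of a family of close copies) at -0.19 and Itgam (CD11b) at 0.09. Cd48 was at 0.58, although at 4.77 on the log2 of the mean TPM, and was detected in 7 WT-MPP cells and 1 BM HSC cell.

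Cd34, the sialomucin that adult mouse stem cells largely lack, had a TPM of 0.898, 790 and 2575 (lowest, median, highest) in WT-MPP and 0.556, 14.6 and 645 in BM HSC. Detection hardly separated the populations, with 40 and 32 cells, but the level did, by 3.83. Emb (embigin, a chaperone of monocarboxylate transporters) had medians of 327 in WT-MPP and 5.38 in BM HSC, a difference of 3.59. Cd52, a short glycoprotein of lymphocytes, and Cd53, a leukocyte tetraspanin, were closer to all-or-none. Cd52 was detected in 22 WT-MPP cells and reached 668 TPM, and in BM HSC it was detected in 4 cells and did not pass 4.29. Cd53 was detected in 25 and 6 cells with highest values of 854 and 4.45. In WT-MPP themselves both genes split the cells, since 19 cells had no Cd52 and 16 no Cd53 at a TPM of 1.

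The other genes among the 15 largest on this side were Wfdc17 (3.15), Kcnk12 (2.94), the unnamed RIKEN transcript 9030619P08Rik (2.93), Ccl3 (2.76), Gm2a (2.74), Serpinb1a (2.72), Pmpca (2.69), Ctss (2.66) and Nkg7 (2.53). Ccl3 is a chemokine, Gm2a a lysosomal activator of ganglioside breakdown, Serpinb1a an inhibitor of neutrophil proteases, Ctss a lysosomal protease of antigen-presenting cells and Nkg7 a granule protein of cytotoxic and myeloid cells. Kcnk12, a potassium channel subunit, was detected in 26 WT-MPP cells and 5 BM HSC cells. By the share of cells, Erp29 (37 against 18 cells), Ada (22 against 6), Anxa2 (23 against 7) and the unnamed BC147527 (17 against 2) joined this side. Ada encodes adenosine deaminase, without which lymphocytes fail to develop.

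**Figure D2:**
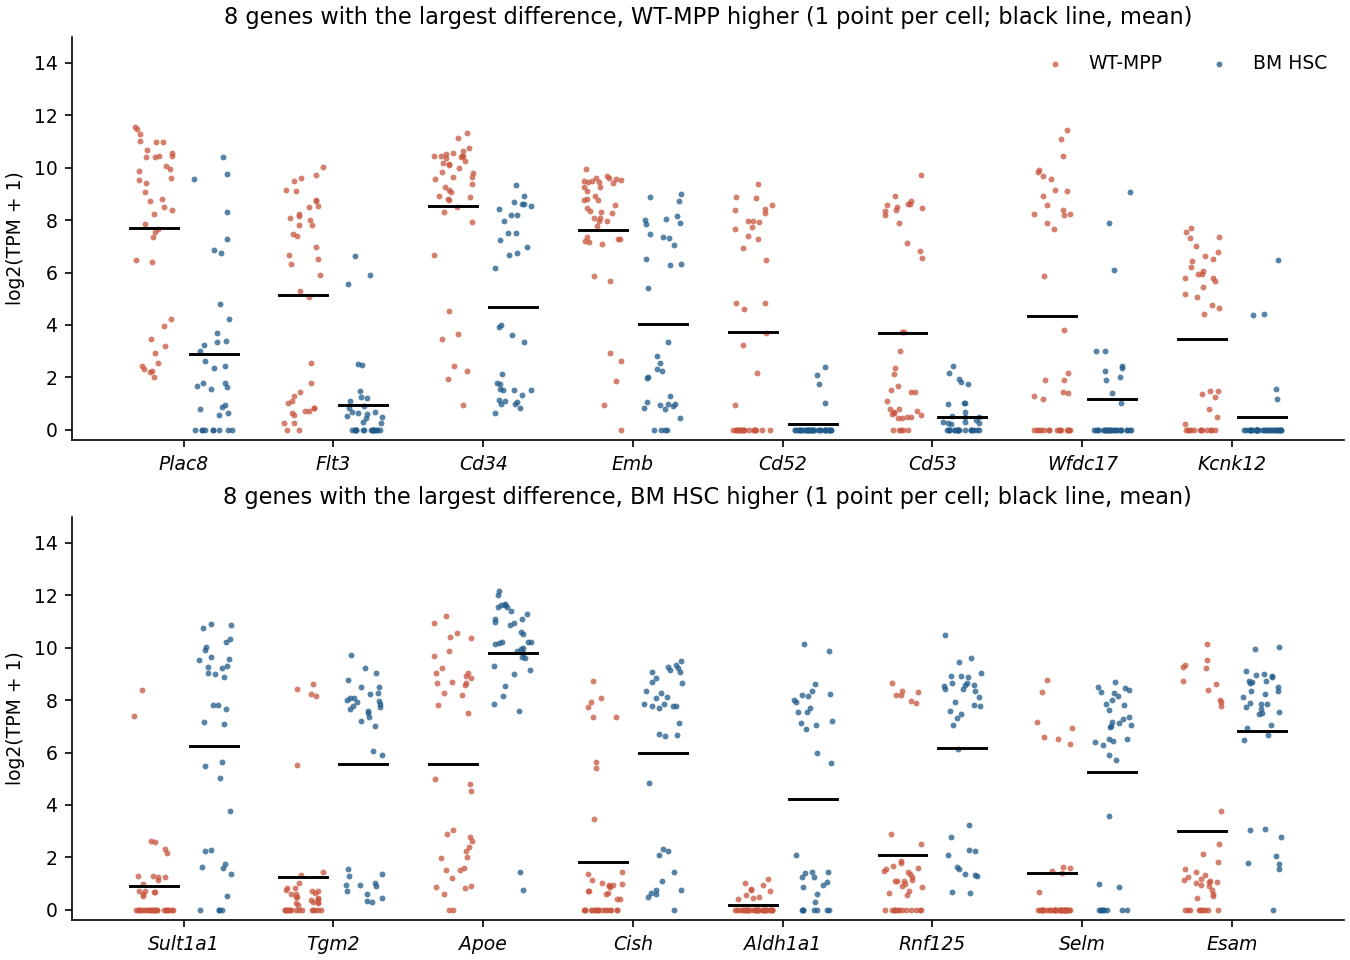
Level of 16 genes in every cell as log2(TPM + 1), with red points for the 41 WT-MPP cells, blue points for the 36 BM HSC cells and a black line at the mean. The upper panel holds the 8 genes of largest difference with WT-MPP higher and the lower panel the 8 with BM HSC higher. Most genes have a cloud of cells near 0 and another above 5, and the populations differ in how many cells fall in each, as for Cd52 (22 against 4 cells detected) and Aldh1a1 (2 against 25).

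On the BM HSC side stood enzymes, cytokine feedback genes and surface proteins long used to mark stem cells. Sult1a1, a phenol sulfotransferase (chr7:126672865-126690443), had the largest difference of all genes (-5.37). Its TPM was 0, 0 and 330 (lowest, median, highest) in WT-MPP and 0, 213 and 1904 in BM HSC, and it was detected in 11 WT-MPP cells (26.8%, 14.2 to 42.9%) and 31 BM HSC cells (86.1%, 70.5 to 95.3%). With BM HSC numbered 1 to 20 alone the difference was -4.58. Aldh1a1, the retinaldehyde dehydrogenase behind a common stem cell assay (chr19:20492583-20643463), separated the populations most by share. It was detected in 2 WT-MPP cells (4.88%, 0.596 to 16.5%) and 25 BM HSC cells (69.4%, 51.9 to 83.7%), and its highest TPM was 1.26 against 1117. Of the BM HSC cells, 24 had both Sult1a1 and Aldh1a1, 7 had Sult1a1 alone, 1 had Aldh1a1 alone and 4 had neither. No WT-MPP cell had both.

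Tgm2 (transglutaminase 2) had medians of 0.295 TPM in WT-MPP and 186 in BM HSC and was detected in 8 and 28 cells (-4.30). Apoe, the lipid carrier apolipoprotein E, was common to both populations (35 cells each) and differed in level, with medians of 30.8 and 1183 (-4.24). Cish, the feedback inhibitor of cytokine receptors that STAT5 induces, was detected in 13 and 30 cells with medians of 0.574 and 217 (-4.14). Its relative Socs2, of the same feedback family, was detected in 10 and 23 cells (-2.96). Mllt3, a transcription elongation factor of stem cells, was detected in 16 and 34 cells (-3.55), and Esam, an endothelial-type adhesion molecule of stem cells, in 25 and 35 (-3.82). Abcg2, the pump behind the dye-excluding side population of stem cells, had medians of 0.625 and 159 TPM (-3.74). Rnf125 (-4.06), Selm (-3.85), Kcnk5 (-3.65), Fam213a (-3.60), Egr1 (-3.56) and Nadkd1 (-3.43) completed the 15. Slc24a5 (5 against 22 cells), Tnip3 (13 against 29) and Mmrn1 (13 against 29), the last a multimerin of platelets and endothelium, were added by share.

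All 37 genes that these rules named kept their direction under each alternative tried. Of them, 36 differed by 2 or more with BM HSC numbered 21 to 40 and 31 with those numbered 1 to 20. They were picked for their large differences in these same cells, so a kept direction was largely set by the choice. Among them, Esam was sensitive to the average, which moved it to -0.997 when the log2 of the mean TPM was taken, with single WT-MPP cells up to 1136 TPM. Aldh1a1 moved the other way under the same average, to -7.01.

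The promoter windows of 3 of these genes are shown, 1 for a gene higher in WT-MPP and 2 for genes higher in BM HSC, because each holds letters known from a factor of this tissue. They come from RefSeq on GRCm38.p6 and run 300 bases, of which 250 precede the annotated start. Capitals mark GAGGAAGT, the core bound by PU.1, on the reverse strand in Cd53 and Sult1a1, and TTCNNNGAA, the core bound by STAT5, in Cish. Cd53 is at chr3:106790100-106790399 (minus strand), Sult1a1 at chr7:126676369-126676668 (minus strand, 1 of its annotated starts) and Cish at chr9:107296409-107296708 (plus strand).
Cd53: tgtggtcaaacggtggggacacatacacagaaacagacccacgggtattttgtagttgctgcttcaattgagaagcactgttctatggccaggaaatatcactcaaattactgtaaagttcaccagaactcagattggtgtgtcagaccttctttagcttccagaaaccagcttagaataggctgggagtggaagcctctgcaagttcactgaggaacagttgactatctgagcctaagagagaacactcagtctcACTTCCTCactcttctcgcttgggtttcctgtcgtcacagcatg
Sult1a1: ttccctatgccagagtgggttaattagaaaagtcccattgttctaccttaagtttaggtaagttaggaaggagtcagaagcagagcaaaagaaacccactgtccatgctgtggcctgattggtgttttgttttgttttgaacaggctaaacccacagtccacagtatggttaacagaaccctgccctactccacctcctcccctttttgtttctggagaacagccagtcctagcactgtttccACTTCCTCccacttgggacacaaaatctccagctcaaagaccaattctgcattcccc
Cish: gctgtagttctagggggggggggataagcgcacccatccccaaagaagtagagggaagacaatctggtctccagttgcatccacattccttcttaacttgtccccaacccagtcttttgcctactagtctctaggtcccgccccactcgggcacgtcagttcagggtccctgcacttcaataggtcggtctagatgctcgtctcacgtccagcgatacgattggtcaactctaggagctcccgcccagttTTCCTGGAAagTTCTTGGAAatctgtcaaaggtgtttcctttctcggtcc
The PU.1 letters began at base 257 of the Cd53 window and base 244 of the Sult1a1 window, and the STAT5 letters at bases 251 and 262 of the Cish window. A window was found for 24 of the 34 genes higher in WT-MPP and 158 of the 205 higher in BM HSC. Among all genes compared, 7783 had a window, and these are the background, with the share of all 32851 windows after it. On either strand GAGGAAGT was in 8.33% of the first (2 windows) and 4.43% of the second, against 3.22% of the genes compared and 3.20% of all windows. TTCNNNGAA was in 8.33% and 8.23%, against 6.86% and 8.30%. The ETS letters CCGGAAGT, which share their last 6 letters with the PU.1 core, were in 4.17% and 3.80%, against 9.66% and 3.89%. AGATAA, the core bound by the erythroid and stem cell factors of that name, was in 4.17% and 5.70%, against 6.18% and 11.2%. TGACGTCA (CREB) was in none and 3.16%, against 3.46% and 1.79%, and CACGTG (E-box) in 4.17% and 9.49%, against 10.9% and 7.15%. For AGATAA, TGACGTCA and CACGTG the BM HSC share lay closer to that of the genes compared than to that of all windows. For CCGGAAGT and TTCNNNGAA it lay closer to that of all windows, and for GAGGAAGT it was above both. With so few windows on the WT-MPP side these shares are a description of letters, not of binding.

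Genes that the field uses to mark long-term stem cells leaned towards BM HSC. Of the 52 that passed the filter among 56 listed, 28 were higher in BM HSC by 1 or more, 53.8% against 16.3% of all genes, and 4 in WT-MPP, 7.69% against 3.0%. Their median difference was -1.28, against -0.29 over all genes. It was -1.10 with BM HSC numbered 21 to 40 and -1.17 among cells with 3500 to 5000 genes. The list was written with earlier results of these data known, so its lean is a description. A cell had 20, 28 and 39 of the 56 genes (lowest, median, highest) in WT-MPP and 24, 36 and 47 in BM HSC, and 1 of the 41 WT-MPP cells reached the BM HSC median. Counted only among the 2400 highest genes of each cell, the medians were 20 and 25.5.

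Beside those named above, the transcription factors Mecom (14 against 24 cells, -2.29), Tcf15 (10 against 25, -3.22) and Mycn (-2.07) were higher in BM HSC, as was Pdzk1ip1, a membrane protein found in every cell of both populations (medians of 231 and 713 TPM, -2.15). Vwf, the clotting factor of platelets and endothelium, did not pass 0.105 TPM in any WT-MPP cell. Its count of 0 in 41 cells allows up to 7.32%, and 15 BM HSC cells (41.7%, 25.5 to 59.2%) had it. Hoxb5, the gene of the series, was detected in 7 WT-MPP and 8 BM HSC cells (-0.35).

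Some stem cell genes ran the other way. Rgs1, a brake on G-protein signalling, had medians of 385 TPM in WT-MPP and 17.1 in BM HSC (1.96). Eltd1, an adhesion receptor of endothelium, was higher by 1.52, Hlf, a PAR-type transcription factor, by 1.31 and Myl10, a myosin light chain, by 1.15. Each of these 4 stayed above 0 in every alternative, although Eltd1 was down to 0.017 with BM HSC numbered 1 to 20, Hlf to 0.49 among cells with 3500 to 5000 genes and Rgs1 to 0.58 on the log2 of the mean TPM. Rgs1, Eltd1 and Myl10 also stood in a list of Rgs and G-protein signalling genes. That list was written with earlier results of these data known and holds the myosin gene Myl10, so its shares are a description. Of its 18 genes compared, 7 were higher in WT-MPP by 1 or more (38.9% against 3.0% of all genes). In BM HSC 1 was, Ptger4 (5.56% against 16.3%). The others on the WT-MPP side were Gpr171 (1.90), Gpr65 (1.82), Ramp1 (1.39) and Calcrl (1.24), the last a receptor subunit that pairs with Ramp1. The median of that list was 0.58, and it was 0.74 with BM HSC numbered 21 to 40 and -0.077 with those numbered 1 to 20, where Gpr171 was at 0.04.

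Lineage genes were uneven. The lineage lists were also written with earlier results of these data known, so their shares are a description. Of the 15 largest differences with WT-MPP higher, 3 are in the lymphoid-priming list and 2 in the myeloid-priming list. Of 24 lymphoid-priming genes compared, 4 were higher in WT-MPP by 1 or more (16.7% against 3.0% of all genes). These were Emb, Cd52, Cd53 and the costimulatory receptor Cd27 (medians of 370 and 144 TPM, 1.39). In BM HSC 2 were (8.33% against 16.3%), Mef2c (-1.33) and Tcf3 (-1.17), both transcription factors of B-cell development. The list median was 0.36. Dntt, the lymphoid DNA polymerase that adds bases to antigen receptor joints, was detected in 6 WT-MPP cells (14.6%, 5.57 to 29.2%) and in 0 of 36 BM HSC cells, a count that a true share of 8.33% would still permit. It was named after its values were seen.

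Of 18 myeloid-priming genes, 6 were higher in WT-MPP by 1 or more (33.3% against 3.0% of all genes). In BM HSC 1 was (5.56% against 16.3%), and the list median was 0.38. Sfpi1 encodes PU.1, the master factor of myeloid and early lymphoid cells. It was detected in 36 and 30 cells and differed in level, with medians of 356 and 64.8 TPM (2.28). Cebpa, the factor of granulocyte commitment, was found in 13 WT-MPP and 3 BM HSC cells (1.73), Csf3r, the G-CSF receptor, in 21 and 6 (1.70), and Tyrobp, a signalling adaptor of myeloid cells, in 15 and 3 (2.01). Cebpb ran against the rest with medians of 2.15 and 116 TPM (-2.11), and was at -0.67 with BM HSC numbered 21 to 40. The granule enzyme gene Mpo, also named after its values were seen, was detected in 4 cells of each population.

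Megakaryocyte and erythroid genes leaned to BM HSC, with 8 of 20 higher there by 1 or more (40% against 16.3% of all genes). None was higher by as much in WT-MPP, and the median was -0.40, against -0.29 over all genes. Gp9, a subunit of the platelet receptor for von Willebrand factor, was detected in 17 WT-MPP and 30 BM HSC cells (-3.12). Sdpr, a caveola protein of platelets, was detected in 0 of 41 and 14 of 36 cells (-2.64), and Itga2b, the platelet integrin CD41, in 4 and 13 (-1.81). Gfi1b, a transcriptional repressor that acts within the megakaryocyte and erythroid lineages, had medians of 4.35 and 215 TPM (-1.88). Car2, the carbonic anhydrase of red cells, was in every cell of both at a difference of -0.34.

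**Figure D3:**
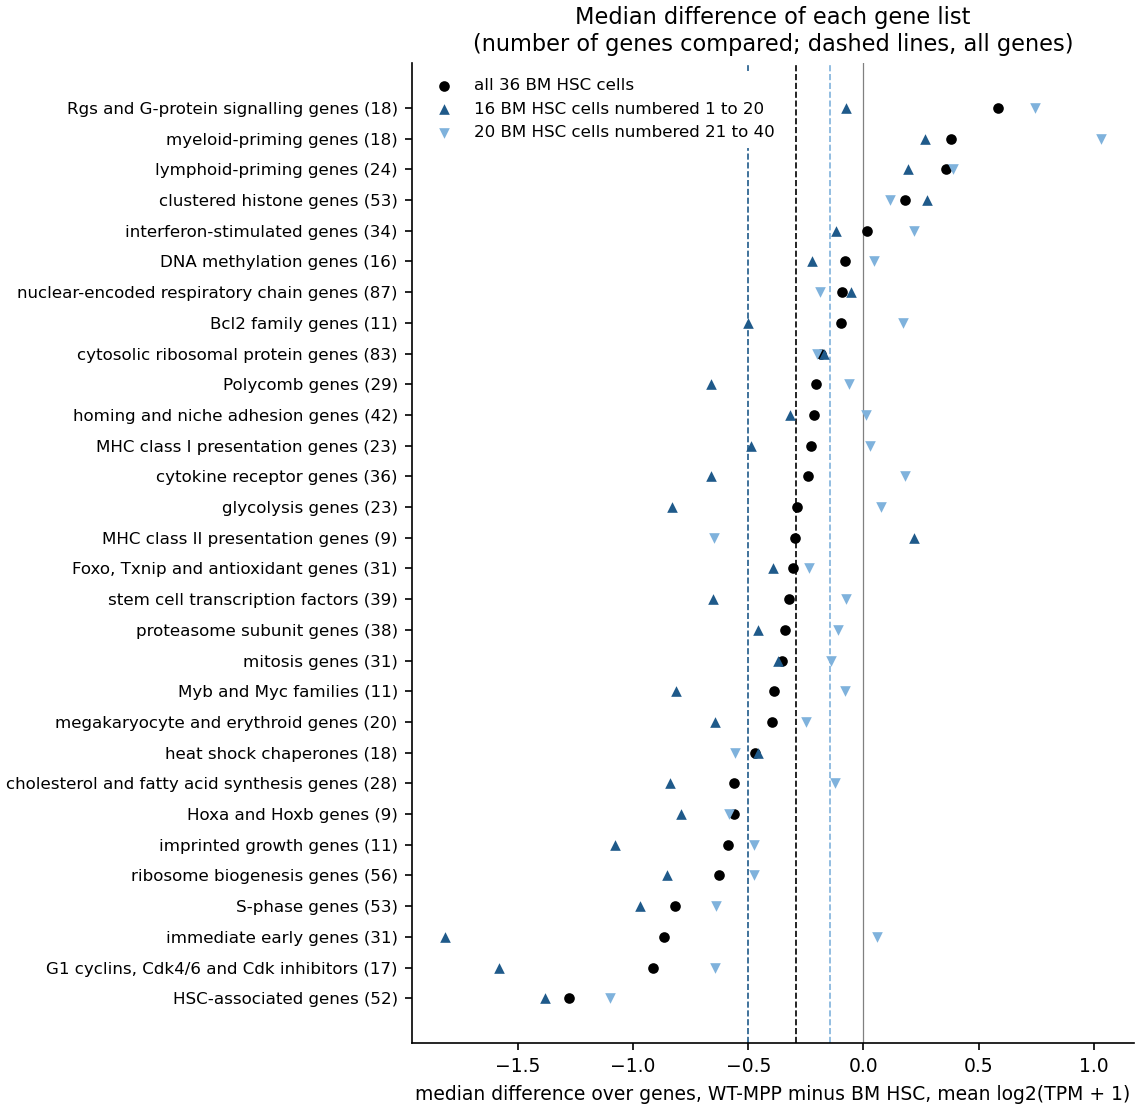
Median difference (WT-MPP minus BM HSC, mean log2(TPM + 1)) of each gene list, with the number of its genes compared. Black circles use all 36 BM HSC cells, dark triangles the 16 numbered 1 to 20 and light triangles the 20 numbered 21 to 40, and dashed lines in the same colours mark the median of all genes. HSC-associated genes stay left of all genes in each case (-1.28, -1.38 and -1.10 in that order), while immediate early genes move from -0.87 to -1.82 and 0.058.

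Immediate early genes, transcription factors and feedback regulators that cells induce within minutes of a stimulus, moved more than any other plotted list with the BM HSC cells taken. With all of them, 15 of 31 genes were higher in BM HSC by 1 or more (48.4% against 16.3% of all genes). In WT-MPP 1 was, Dusp6 (3.23% against 3.0%), and the median was -0.87. With the 16 cells numbered 1 to 20 the median was -1.82, against -0.50 over all genes. With the 20 numbered 21 to 40 it was 0.058, against -0.15 over all genes. Jund changed its sign, from -3.65 to 0.16, and Nr4a1 went from -5.46 to -0.35 and Fos from -4.11 to -0.62. Egr1 stayed lower in WT-MPP with either set, at -5.62 and -1.91, as did Ppp1r15a, a stress-response phosphatase subunit, at -3.44 and -2.52. Egr1 had a TPM of 0, 2.60 and 3247 (lowest, median, highest) in WT-MPP and 0, 265 and 3477 in BM HSC, so single cells of either population covered the same span. Cells had 13 to 22 of 39 immediate early genes in WT-MPP (median 17), 17 to 28 in BM HSC numbered 1 to 20 (median 24.5) and 14 to 24 in those numbered 21 to 40 (median 16.5). The number of genes detected moved with this set in the same cells, and its part in the result was not tested.

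Cell cycle genes differed in how cells were spread. Of 53 S-phase genes compared, 20 were higher in BM HSC by 1 or more (37.7% against 16.3% of all genes). None was higher by as much in WT-MPP, and the median was -0.82. Cdca7, a chromatin protein of replicating cells, had medians of 0.619 and 137 TPM (-2.64), Dut, which removes dUTP, of 0.982 and 68.4 (-2.61), and Mcm7, a subunit of the replicative helicase, of 0.736 and 113 (-2.04). Most cells of both populations had few of the 63 listed genes, 8, 15 and 37 (lowest, median, highest) in WT-MPP and 7, 20 and 56 in BM HSC. Among the 2400 highest genes of each cell the medians were 9 and 10. At 30 or more lay 1 WT-MPP cell and 7 BM HSC cells, and without these 8 cells the median was -0.32, close to the -0.21 of all genes in the same cells. The choice of 30 was made after seeing the values, and leaving out cells by these genes lowers their difference by construction. Of the 7 BM HSC cells, 4 were numbered 1 to 20 and 3 higher. Mitosis genes stood near all genes at a median of -0.36, with 7 of 31 higher in BM HSC by 1 or more (22.6% against 16.3%). Of the 31, 13 lay above 0 and 18 below. Cdk1, the mitotic kinase, was detected in 2 WT-MPP and 17 BM HSC cells (-2.32) and Cks1b, its partner, in 27 and 34 (-2.49). A cell had 4, 9 and 36 of the 63 listed mitosis genes (lowest, median, highest) in WT-MPP and 5, 11 and 31 in BM HSC.

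The D-type cyclins, which drive cells through G1, were on the BM HSC side. Ccnd1 was detected in 5 WT-MPP and 17 BM HSC cells (-1.99), Ccnd2 had medians of 82.9 and 228 TPM (-2.07) and Ccnd3 of 177 and 457 (-2.46). Of the inhibitors, Cdkn1c (p57), a gene of quiescent stem cells, was also higher in BM HSC (15 against 21 cells, -2.03). So were Cdkn2d (28 against 30 cells, -1.37) and, by less than 1, Cdkn1a (0 against 5 cells, -0.91). Cdkn1b (p27) was higher in WT-MPP (medians of 12.2 and 2.40 TPM, 1.11) and so was Cdkn2c (8 against 1 cell, 1.21). The list as a whole had a median of -0.91 over 17 genes, 7 of them at -1 or below (41.2% against 16.3% of all genes).

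**Figure D4:**
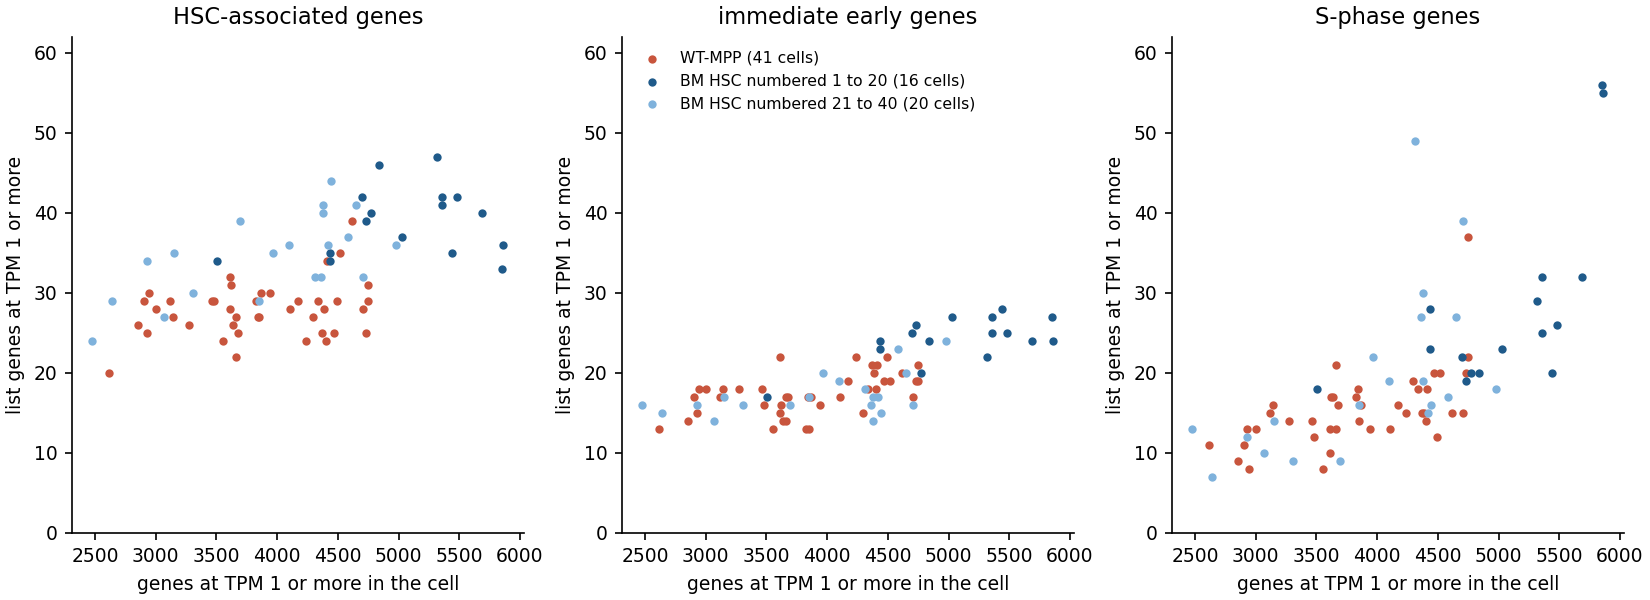
Number of list genes detected in each cell (vertical axis) against the number of all genes detected there (horizontal axis), for 56 HSC-associated, 39 immediate early and 63 S-phase genes, 1 point per cell. Red is WT-MPP, dark blue BM HSC numbered 1 to 20 and light blue BM HSC numbered 21 to 40. The light blue cells share the red cells' range of detected genes and stand above most of them in the first panel (median 35 against 28) but not in the second (16.5 against 17).

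Of 39 transcription factors of stem cells, 11 were higher in BM HSC by 1 or more (28.2% against 16.3% of all genes). In WT-MPP 1 was, Hlf (2.56% against 3.0%), and the median was -0.32, against -0.29 over all genes. Beside Egr1, Tcf15, Mecom and Mycn the 11 included Gata2 (medians of 70.1 and 351 TPM, -1.86), Stat5a (18 against 26 cells, -1.78) and Meis1 (-1.29). Lmo2, Lyl1, Zfp36l2 and Myc, the most abundant of the rest, lay between -0.21 and 0.64. Of 42 genes for homing and adhesion in the niche, 5 were higher in WT-MPP by 1 or more (11.9% against 3.0% of all genes) and 9 in BM HSC (21.4% against 16.3%). Cd34, P2ry14 (1.55), Cd44 (1.53), Cd27 and Emcn (1.01) made up the first set, and Esam, the integrin subunits Itga2b and Itga6 (4 against 12 cells, -1.21) and the tetraspanins Cd9 (-1.49) and Cd81 (-1.36) were among the second.

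Other groups held single genes of large difference. Ribosome biogenesis genes had 14 of 56 higher in BM HSC by 1 or more (25% against 16.3% of all genes). Their median was -0.63, and Gar1 (-2.29), a protein of the particles that modify ribosomal RNA, led them. Ribosomal protein genes themselves stood at -0.18 over 83 genes and the nuclear genes of the respiratory chain at -0.09 over 87. Of 9 MHC class II presentation genes, 3 were higher in WT-MPP by 1 or more (33.3% against 3.0%) and 2 in BM HSC (22.2% against 16.3%). The peptide loader H2-DMa (medians of 474 and 160 TPM, 2.08) and its modulators H2-Ob (2.02) and H2-Oa (1.05) formed the first set, and the invariant chain Cd74 (-1.39) and H2-Aa (-1.06) the second. On the log2 of the mean TPM that list's median was 1.37 instead of -0.30. Among 34 interferon-stimulated genes 4 were higher in WT-MPP by 1 or more (11.8% against 3.0%), Rtp4 (2.41), Ifi27l1 (2.09), Oasl2 (1.59) and Gbp2 (1.39). In BM HSC 3 were (8.82%, below the 16.3% of all genes). Cytokine receptors had 3 of 36 on the WT-MPP side (8.33% against 3.0% of all genes), Flt3, Il2rg (the common gamma chain, 1.98) and Csf3r, and 6 on the other (16.7%, near the 16.3% of all genes), led by Il11ra1 (-2.27) and Tnfrsf1a (-2.01). Of 31 Foxo, Txnip and antioxidant genes 3 were higher in WT-MPP by 1 or more (9.68% against 3.0%). In BM HSC 7 were (22.6% against 16.3%), and the median was -0.30, near the -0.29 of all genes. Cat (catalase, 1.76, although 0.31 with BM HSC numbered 1 to 20), Sesn1 (1.11) and Prdx2 (1.02) made up the first set, and Gpx3, a secreted glutathione peroxidase (4 against 14 cells, -1.86), and Keap1 (-1.42) led the second. Heat shock chaperones had a median of -0.47, with Dnajb1 at -2.24 and Hspa8 at 0.15. Among the remaining lists the medians ran from -0.59 for imprinted growth genes (11 genes) over -0.21 for Polycomb genes (29) to 0.18 for clustered histone genes (53).

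Some defining markers of mature cells were listed at 0. S100a8, S100a9, Ltf and Ccr2 were at 0 in every cell of both populations. Of 6 mature T and NK cell markers in the table, Cd3d was at 0 in both as well, and the summed level was 0 to 1268 TPM in WT-MPP (median 0, with a marker detected in 8 of 41 cells) and 0 to 291 in BM HSC (median 0.214, with one in 11 of 36). The highest by mean were Ccl5 in WT-MPP and Klrb1c in BM HSC, the latter an NK-cell receptor detected in 0 and 8 cells (-1.47). Of 10 B-cell markers listed, 4 were in the table, among them Vpreb1, which also stands in the lymphoid-priming list. Cd79a and Cd22 were at 0 in every WT-MPP cell. The summed level of the 4 was 0 to 974 TPM in WT-MPP (median 2.72) and 0 to 1085 in BM HSC (median 200). The highest of them was Cd79b, a B-cell receptor subunit detected in 26 WT-MPP and 27 BM HSC cells (-1.58). The summed level of 11 mature myeloid markers had a median of 0 in both and reached 2553 TPM in WT-MPP and 738 in BM HSC. Whether single cells with such transcripts enter the differences of Ctss, Tyrobp or Cd74 was not tested.

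The genes that separated adult MPPs from adult HSCs were also placed in the other populations of the series. FL HSC (56 cells) are fetal liver HSCs of Day14.5 embryos of the same Rosa LSL-Hoxb5-EGFP/+ line. CD11b+CD48+SK cells (47) were donor-derived cells from the marrow of primary recipients 8 weeks after transplantation. In that model the donors were MPP of Mx1cre/Rosa LSL-Hoxb5-EGFP/+ mice, in which polyinosinic-polycytidylic acid given to the recipients switched on the added Hoxb5. The 34 genes higher in WT-MPP had median levels of 4.96 in WT-MPP and 2.50 in BM HSC, as mean log2(TPM + 1), 3.81 in FL HSC and 5.85 in CD11b+CD48+SK cells. Of these genes, 25 stood nearer to WT-MPP than to BM HSC in CD11b+CD48+SK cells (73.5%) and 18 in FL HSC (52.9%). Many lay outside both adult populations. In CD11b+CD48+SK cells 21 were above both and 2 below both, and in FL HSC 10 and 9. The 205 genes higher in BM HSC had medians of 2.20, 4.70, 4.64 and 2.72 in the same order. Of them, 138 (67.3%) stood nearer to BM HSC in FL HSC and 69 (33.7%) in CD11b+CD48+SK cells. In FL HSC 91 were above both adult populations and 15 below both, and in CD11b+CD48+SK cells 32 and 88. Standing nearer thus often meant lying outside the adult range, and the same shares over all genes are not given here.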

How the data were processed

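Single cells were sorted, their cDNA was amplified, and 41 WT-MPP and 36 BM HSC libraries were used here. According to the methods of the study and the submitters' processing notes, the authors mapped reads to mm10 by HISAT2 2.1.0 and quantified genes by StringTie 1.3.4. The deposited values are TPM, scaled by the authors so that every cell has the same sum, so counts of reads and depth are unknown. The table lists 14825 genes and 181 cells, of which 1, with the name of an MPP but no sample entry, was left out. Cells were neither filtered nor searched for doublets.

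Values were averaged as log2(TPM + 1) over cells in Python 3.11.15 (pandas 2.3.3, numpy 2.4.6, scipy 1.17.1, matplotlib 3.10.9 for plots). A gene passed if at least 10% of the cells of either population had it at a TPM of 1. The study's tests over cells were not repeated, since cells of unnamed animals are not replicates. Intervals for shares of cells are 95% exact Clopper-Pearson intervals, and a share at 0 is given with the limit that 3 cells of the total would set. Older and current gene symbols were matched through RefSeq for GRCm38.p6. The calculation was checked on simulated data with known differences.

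Genes to be named were found by rule, and not every one of them is printed above. These were the 15 largest differences each way among genes detected in 25% of the cells of the higher population, the 10 largest differences each way in share of cells, the sort markers and genes of the paper, list members at 1 or more or -1 or less, and up to 4 other members of highest mean per list. The comparison, the 37 lists and the rule were chosen with earlier results of these data known. Alternatives changed the pseudocount, the average, the scaling of cells, the cells used, the filter, the threshold and the detection level. Restricting BM HSC by title number and leaving out cells with many S-phase genes were chosen after seeing the data.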

Additional observations from a re-analysis of the deposited data

How the results depend on the processing

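No paired analysis was possible because no result comes from a test and each population counted as 1 sample. The genes higher by 2 or more numbered 34 in WT-MPP and 205 in BM HSC. They numbered 110 and 771 with a pseudocount of 0.1, 6 and 22 with a pseudocount of 10, 226 and 483 on the log2 of the mean TPM plus 1, and 290 and 1573 at a difference of 1. Among cells with 3500 to 5000 genes 113 were higher in WT-MPP, with BM HSC numbered 21 to 40 the count was 90, and with BM HSC numbered 1 to 20 the count higher in BM HSC was 671. The median over all genes moved from -0.29 to between -0.50 (BM HSC numbered 1 to 20) and -0.04 (log2 of the mean TPM). The median of immediate early genes reversed to 0.058 with BM HSC numbered 21 to 40 and that of Rgs and G-protein signalling genes to -0.077 with numbers 1 to 20. The median of MHC class II genes was 1.37 on the log2 of the mean TPM. The cause was not tested. All 67 named genes with a difference of 2 or more kept their direction under every alternative. They were taken at that difference in the same cells, which largely set this outcome.

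Genes detected per cell had medians of 3170 at a TPM of 10 in WT-MPP, and of 5322 in WT-MPP and 5943 in BM HSC at any TPM above 0. Counted among the 2400 highest genes of each cell, the median numbers in WT-MPP and BM HSC were 20 and 25.5 for HSC-associated genes, 12 and 13.5 for immediate early genes, 7 and 4.5 for lymphoid-priming genes, 6 and 7 for megakaryocyte and erythroid genes and 8 and 6 for myeloid-priming genes. S-phase genes had medians of 9 and 10 and mitosis genes of 5 and 5. With depth unknown, a gene listed at 0 may lie below what the cell's library could show, and 36 and 41 cells without named animals give no error between mice.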
